A study of Mus musculus with 3 samples.

Results

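Secondary granule genes and the genes of the calprotectin pair were followed in bone marrow progenitors of mice. They are 10 listed genes out of 27998 in the deposited gene lists: Camp, Ngp, Ltf, Lcn2, Pglyrp1, S100a8, S100a9, Chil3, Mmp8 and Fcnb. They were taken by name, and all 10 were found in each of the 3 count matrices.

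The 3 libraries are single-cell RNA libraries of the 10x Genomics type from live, lineage-negative, c-kit-positive bone marrow cells of C57BL/6 mice. The mCherry and non_mCherry libraries are the reporter-positive and reporter-negative sort fractions of 1 mouse that carries Mx1-Cre and a heterozygous, inducible Runx1-Runx1t1 knock-in and was given poly(I:C). The control library came from 1 wild-type mouse, and the labels do not say whether it was given poly(I:C) or how old the animals were. With 1 library per group no test over animals can be made, and every interval below covers counting error only. Mx1-Cre answers to interferon and is not limited to blood cells, the fusion is followed by the mCherry sequence in the knock-in, and the non_mCherry fraction holds cells of the same induced animal that did not show the reporter.

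Neutrophils fill their granules in waves as they mature. Promyelocytes make the primary granule proteases first, myelocytes and metamyelocytes then make the secondary granule proteins, and tertiary granule proteins follow in later cells. The factor C/EBP epsilon is needed for secondary granule genes in mice, and RUNX1-RUNX1T1, the fusion of human t(8;21) leukaemia, is known for holding back granulocyte maturation. Camp encodes the cathelicidin antimicrobial peptide, Ngp a granule protein of the cystatin and cathelicidin type, and Ltf the iron-binding protein lactoferrin. Lcn2 encodes a lipocalin that binds bacterial siderophores, and Pglyrp1 a protein that binds bacterial peptidoglycan. Mmp8 encodes neutrophil collagenase, Fcnb the lectin ficolin B, and Chil3 a chitinase-like protein of myeloid cells. S100a8 and S100a9 are not granule proteins: together they form calprotectin, the calcium-binding and metal-binding complex of the neutrophil and monocyte cytosol.

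In GRCm38 coordinates (GENCODE annotation), 4 of the genes lie on chromosome 9 and 3 on chromosome 3. Camp occupies chr9:109847379-109849617 on the minus strand, Ngp chr9:110419747-110423012 on the plus strand and Ltf chr9:111019271-111042767 on the plus strand. They lie 570129 and 596258 bases apart, and Mmp8 is far away on the same chromosome at chr9:7558456-7568485. S100a8 (chr3:90668978-90670035) and S100a9 (chr3:90692632-90695721) are 22596 bases apart on opposite strands, and Chil3 lies at chr3:106147554-106167564. Lcn2 (chr2:32384633-32388252) and Fcnb (chr2:28076378-28084885) are on chromosome 2, and Pglyrp1 (chr7:18871331-18890459) is on chromosome 7. All 10 are annotated as protein-coding.

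The 250 bases before the RefSeq transcription start (build GRCm38.p6) are shown for 4 genes whose levels go different ways below: Ltf, Mmp8, Fcnb and S100a9. Capitals mark each match to the C/EBP-type letters TTNNGCAA or their reverse complement TTGCNNAA, and each window reads 5′ to 3′ on the strand of the gene. The windows are chr9:111019042-111019291 (plus strand) for Ltf, chr9:7558179-7558428 (plus strand) for Mmp8, chr2:28084879-28085128 (minus strand) for Fcnb and chr3:90695722-90695971 (minus strand) for S100a9.
Ltf: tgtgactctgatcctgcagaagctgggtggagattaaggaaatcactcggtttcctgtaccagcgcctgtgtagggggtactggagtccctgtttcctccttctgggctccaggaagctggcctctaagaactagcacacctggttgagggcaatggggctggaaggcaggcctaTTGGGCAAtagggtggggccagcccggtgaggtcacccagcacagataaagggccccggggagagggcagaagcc
Mmp8: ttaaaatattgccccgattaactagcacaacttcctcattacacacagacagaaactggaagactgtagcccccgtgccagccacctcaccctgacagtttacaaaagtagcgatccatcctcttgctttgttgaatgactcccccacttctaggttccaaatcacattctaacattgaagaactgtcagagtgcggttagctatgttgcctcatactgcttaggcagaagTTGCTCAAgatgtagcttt
Fcnb: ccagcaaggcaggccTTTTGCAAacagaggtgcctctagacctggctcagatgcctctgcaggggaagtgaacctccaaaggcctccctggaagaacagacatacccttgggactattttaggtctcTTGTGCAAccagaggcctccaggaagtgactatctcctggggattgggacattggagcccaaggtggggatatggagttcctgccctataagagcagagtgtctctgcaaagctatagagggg
S100a9: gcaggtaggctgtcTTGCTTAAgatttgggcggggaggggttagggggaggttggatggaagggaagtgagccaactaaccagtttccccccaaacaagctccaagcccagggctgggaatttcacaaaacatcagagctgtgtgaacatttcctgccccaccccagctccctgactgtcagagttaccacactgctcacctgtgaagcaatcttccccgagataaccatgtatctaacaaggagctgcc
The match begins 75 bases before the start in Ltf and 19 bases before it in Mmp8, and the pair in Fcnb 123 and 235 bases before it. Over all members, 6 of 10 windows held at least 1 such match (Ngp and Fcnb 2 each, and Ltf, Lcn2, S100a9 and Mmp8 1 each), while 9.56% of 32851 mouse promoter windows of that length held one. The RUNX letters TGTGGT or ACCACA were found in 1 of 10 windows, that of S100a9, and in 14.05% of all windows. The PU.1 letters GAGGAAG or CTTCCTC were found in 4 of 10 windows (Lcn2, Pglyrp1, S100a8 and Mmp8) and in 10.6% of all windows. No match of 1 motif overlapped a match of another in the windows of the members, and a match describes the sequence only.

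After barcodes with few genes, few UMIs, many mitochondrial UMIs or a high doublet score were left out, 10172 mCherry, 7852 non_mCherry and 8849 control cells remained, with 92373057, 86916116 and 143311001 UMIs in the same order. The median was 8179 UMIs per mCherry cell, 9247 per non_mCherry cell and 15416 per control cell, and deeper sequencing and more RNA per cell cannot be told apart in these counts. A UMI stands for 1 counted molecule, and levels are in CPM, the gene's UMIs scaled to a common library total, not divided by gene length, so levels are compared between libraries and cells and not between genes. The libraries share 24 to 42 barcode sequences per pair, and no barcode rich in the 10 genes was rich in more than 1 library. Gene-level counts cannot be checked for reads that Chil3 shares with its near copy Chil4, which had 0 UMIs in all 3 libraries, so Chil3 is given with that reserve.

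All 10 genes had their lowest level in the mCherry library and their highest in the control library. Camp was at 40.6 CPM in mCherry (95% Poisson interval 39.3 to 41.9), 98.6 in non_mCherry and 173 in control cells. Ngp was at 30.0, 102 and 150 CPM in mCherry, non_mCherry and control cells. Ltf was at 5.37 CPM in mCherry, 17.1 in non_mCherry and 31.0 in control cells. Thus the 3 secondary granule genes of chromosome 9 shared the same order of the libraries. No pair of libraries had overlapping intervals for any of them, but the share of all genes without overlap is not given here. These intervals take UMIs as independent, while the highest mCherry cell held 912 of the 3748 Camp UMIs. For Ngp the highest mCherry cell held 861 of 2774 UMIs, and for Ltf 202 of 496.

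The bacteria-binding proteins and the calprotectin pair had the same order. Lcn2 was at 15.1 CPM in mCherry, 71.2 in non_mCherry and 75.0 in control cells, so that non_mCherry and control were close. Pglyrp1 was at 10.3 CPM in mCherry, 53.8 in non_mCherry and 63.0 in control cells. S100a8 was at 97.8, 281 and 414 CPM in mCherry, non_mCherry and control cells. S100a9, its partner, was at 137 CPM in mCherry, 326 in non_mCherry and 478 in control cells. Lcn2 and Pglyrp1 set mCherry apart from both other libraries, while the calprotectin pair was also graded between non_mCherry and control.

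The remaining 3 genes were rarer. Chil3 was at 7.91 CPM in mCherry, 13.8 in non_mCherry and 29.7 in control cells. Mmp8 was at 0.357 CPM in mCherry (33 UMIs), 2.67 in non_mCherry and 3.68 in control cells. Fcnb was at 0.714 CPM in mCherry (66 UMIs), 1.86 in non_mCherry and 4.24 in control cells. Mmp8 and Fcnb were under 20 CPM in every library, the level at which a gene was compared by fold.

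Quotients of CPM, mCherry over control, are given first for the 8 members that reached 20 CPM in 1 of the libraries. The lowest was that of Pglyrp1, at 6.12-fold lower (95% interval 5.73 to 6.55). Nearest to 1 was S100a9, at 3.49-fold lower (3.42 to 3.56). Camp was 4.27-fold lower, Ngp 5.01-fold, Ltf 5.78-fold, Lcn2 4.97-fold, S100a8 4.23-fold and Chil3 3.75-fold lower. Under that level, Mmp8 was 10.3-fold lower (7.24 to 15.1) and Fcnb 5.94-fold lower. Of the 33 Mmp8 UMIs in mCherry, 27 lay in 2 cells, and the interval takes UMIs as independent. By log2((CPM + 5)/(CPM + 5)), 8 of the 8 members that reached 20 CPM in 1 of the libraries were at least 2-fold lower in mCherry than in control, and none was higher. Of these, 4 (Ltf, Lcn2, Pglyrp1 and Chil3) reached 20 CPM only in control, so that their direction is largely set by that minimum, and 4 (Camp, Ngp, S100a8 and S100a9) reached it in both libraries. Of the 6576 genes that reached this level, 10.0% were at least 2-fold lower and 14.9% at least 2-fold higher. The median log2 ratio of the 8 members at this level was -1.98, against 0.08 over all genes compared. Over all 10 members, whatever their level, it was -1.88. In mCherry over non_mCherry, 6 members with at least 20 CPM were at least 2-fold lower, 2 of which (Lcn2 and Pglyrp1) reached it only in non_mCherry, beside 8.94% lower and 14.1% higher among 6566 genes. The median log2 ratio of all 10 members there was -1.20. Both comparisons share the mCherry library.

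In non_mCherry over control, 0 of 8 members were past 2-fold, beside 0.178% lower and 1.1% higher among 5631 genes, and the median log2 ratio of all 10 members was -0.54. That count depended on how cells were weighted. When every cell was thinned to 2000 UMIs, so that cells counted equally, 7 of 8 members passed 2-fold, with Camp at -1.92 and Lcn2 at -1.03 on the log2 scale. The count in mCherry over control stayed at 8 of 8 there. The share over all genes after thinning is not given here, so neither thinned count has a background beside it.

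**Figure D1:**
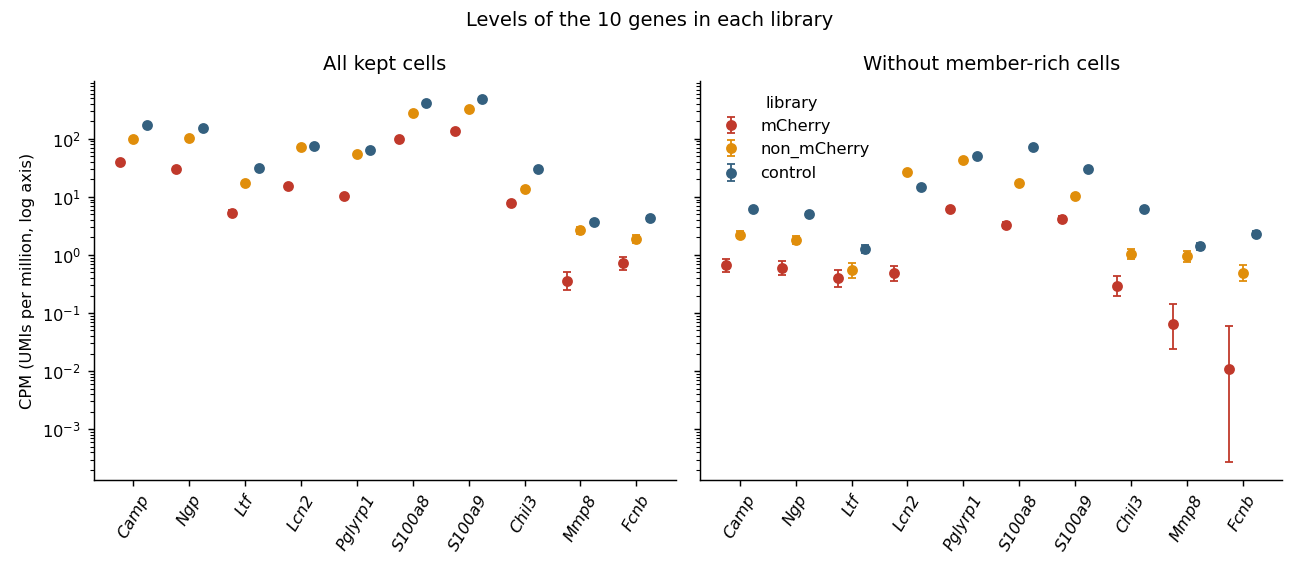
CPM of the 10 genes in the mCherry, non_mCherry and control libraries, on a log axis, with exact 95% Poisson intervals, in all kept cells (left) and without cells that had at least 2% of their UMIs from the 10 genes (right). On the left every gene rises in the order mCherry, non_mCherry, control; on the right Lcn2 is at 26.6 CPM in non_mCherry and 14.8 CPM in control.

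Behind these levels stood few cells. In mCherry, the 3 cells highest in Camp held at least 50% of its UMIs, against 5 cells in non_mCherry and 16 in control. For S100a9 it took 3 mCherry cells, 8 non_mCherry cells and 27 control cells, and for Lcn2 it took 2, 13 and 26 cells in the same order. Pglyrp1 stood apart, with 43 mCherry, 167 non_mCherry and 276 control cells. The first 2% of cells, ranked by the gene itself, held a median over the 10 genes of 100%, 99.6% and 95.7% of the UMIs in mCherry, non_mCherry and control. A gene seen in fewer than 2% of cells must reach 100% here, as Camp does with 0.649% of mCherry cells, so that the order of the libraries in this measure follows how often a gene was detected. Pglyrp1 was the lowest in each library at 69.0%, 40.3% and 36.3%.

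**Figure D2:**
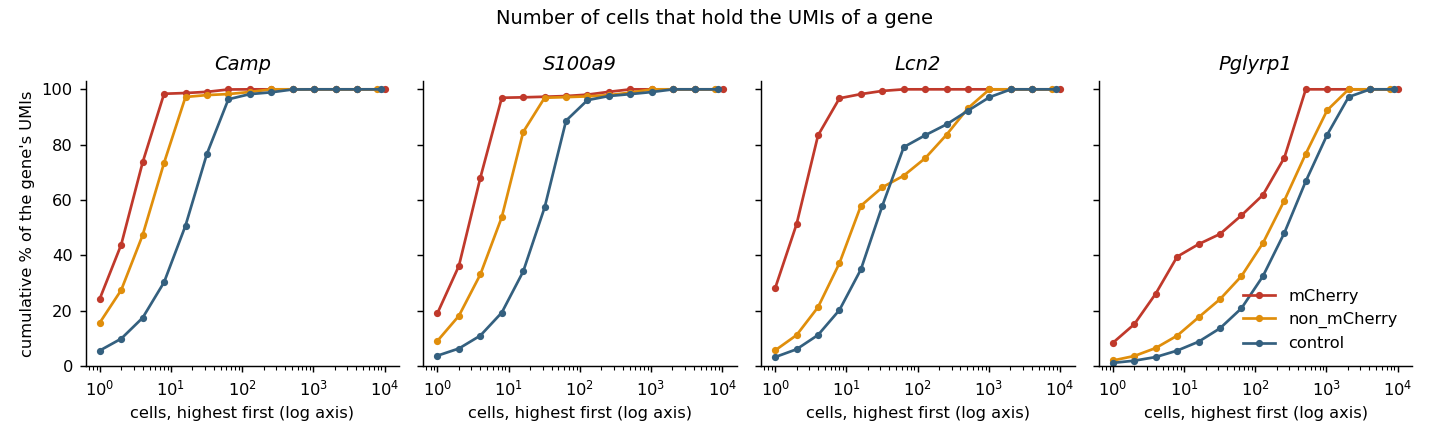
Cumulative percent of the UMIs of Camp, S100a9, Lcn2 and Pglyrp1 (vertical axis) over cells ranked from the highest down (log axis), for the mCherry, non_mCherry and control libraries. Camp and S100a9 gather in few cells per library and Pglyrp1 is spread more widely: 43 mCherry, 167 non_mCherry and 276 control cells hold the first 50%.

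The share of cells with at least 1 UMI of a gene was also ordered. S100a9 was seen in 3.64% of mCherry cells, 10.8% of non_mCherry cells and 19.1% of control cells, and after thinning to 2000 UMIs in 0.983%, 2.42% and 4.83%. Camp was seen in 0.649% of mCherry, 2.67% of non_mCherry and 5.92% of control cells, and after thinning in 0.197%, 0.815% and 2.12%. Pglyrp1 was seen most often, in 4.83% of mCherry, 17.5% of non_mCherry and 26.0% of control cells, and after thinning in 1.23%, 5.74% and 8.02%. Whether a cell with single UMIs made the RNA or picked up free RNA was not tested.

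Cells with at least 2% of their UMIs from the 10 genes were set apart as member-rich. There were 8 among the kept mCherry cells (0.0786%, exact binomial interval 0.0340% to 0.155%), 22 in non_mCherry (0.280%, 0.176% to 0.424%) and 76 in control (0.859%, 0.677% to 1.07%). The 2% limit was set after the values were seen and marks a range, not a cell type: in control 47 kept cells lay between 1% and 4%, while none of the kept mCherry or non_mCherry cells did. The 8 mCherry cells had 15.5% to 51.5% of their UMIs from the 10 genes, the 22 non_mCherry cells 7.34% to 53.8% and the 76 control cells 2.02% to 50.8%.

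These 8 cells held 98.3% of the Camp, 98.0% of the Ngp, 92.5% of the Ltf and 96.8% of the Lcn2 UMIs of the mCherry library. They also held 97.0% of its S100a9 and 96.7% of its S100a8 UMIs, 96.3% of Chil3, 98.5% of Fcnb and 81.8% of Mmp8, but only 39.5% of Pglyrp1. In control the 76 cells held 96.5% of Camp and 93.8% of S100a9, and smaller shares of Lcn2 (80.4%), Chil3 (78.9%), Mmp8 (61.9%), Fcnb (46.1%) and Pglyrp1 (20.7%). In non_mCherry the 22 cells held 97.7% of Camp, 96.8% of S100a9, 62.8% of Lcn2 and 19.9% of Pglyrp1. At least 92.5% of the Camp, Ngp, Ltf and S100a9 UMIs of each library thus lay in its member-rich cells.

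Within member-rich cells the levels per cell were wide-ranging. The median cell had 126965 CPM of S100a9 in mCherry (61247 to 197419), 136285 in non_mCherry (39813 to 232841) and 135143 in control (5760 to 213373). Camp had a median of 30429 CPM in the 8 mCherry cells, 28108 in the 22 non_mCherry cells and 41158 in the 76 control cells, and each group reached down to 0. Lcn2 had medians of 12411, 18329 and 16229 CPM in mCherry, non_mCherry and control. The cells were chosen by these same genes, so that their levels are a description and no comparison of the libraries.

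The 8 mCherry cells had less RNA of the sorted receptor and of Runx1 than the other mCherry cells. They held 2 UMIs of Kit, the c-kit receptor used in the sort (20.1 CPM, 2.43 to 72.6), against 270 CPM in the other 10164 mCherry cells. Runx1, the 5′ partner of the fusion, also had 2 UMIs in them (20.1 CPM, 2.43 to 72.6), against 376 CPM in the other mCherry cells. Runx1t1, the 3′ partner, had 0 UMIs in them, which allows up to 30.1 CPM and so shows no difference from the 8.50 CPM of the other mCherry cells. Cpa3, a mast cell protease that is high throughout this library, was at 100 CPM against 10489 CPM in the other cells. Hp, which encodes haptoglobin, was detected in 8 of the 8 cells at 2843 CPM, and was at 0.477 CPM in the others. Whether these 8 cells carried the fusion was not tested. Ly6g, a surface antigen of neutrophils, was detected in 6 of the 8 cells at 251 CPM, and Itgam, which encodes CD11b, in 7 at 221 CPM. The antibodies of the lineage panel are not given in the sources used here. Kit was at 8.76 CPM in the 22 non_mCherry cells and 56.7 CPM in the other non_mCherry cells. In control it was at 33.8 CPM in the 76 cells and 67.0 CPM in the other cells. Runx1 was also lower in member-rich cells there, at 70.1 against 148 CPM in non_mCherry and 71.6 against 149 CPM in control.

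A further set of member-rich barcodes fell under the cell filter: 3 in mCherry, 10 in non_mCherry and 51 in control. Of these, 3, 10 and 49 had fewer than 1000 genes detected. All barcodes left out by the filter held 7.92% of the deposited S100a9 UMIs of mCherry, 15.4% of those of non_mCherry and 18.5% of those of control, and for Mmp8 the left-out share was 2.94%, 22.1% and 28.4%. Camp was little touched, at 0.107%, 3.37% and 2.86%. In control, left-out member-rich barcodes had 5666 CPM of Camp, against 31192 CPM in kept ones, and 1619 CPM of Mmp8, against 424. Retnlg, a resistin-like gene of mature mouse neutrophils, was at 27168 CPM in the left-out and 3254 CPM in the kept control barcodes. With all deposited barcodes in use, the members' counts past 2-fold were the same in all 3 comparisons.

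**Figure D3:**
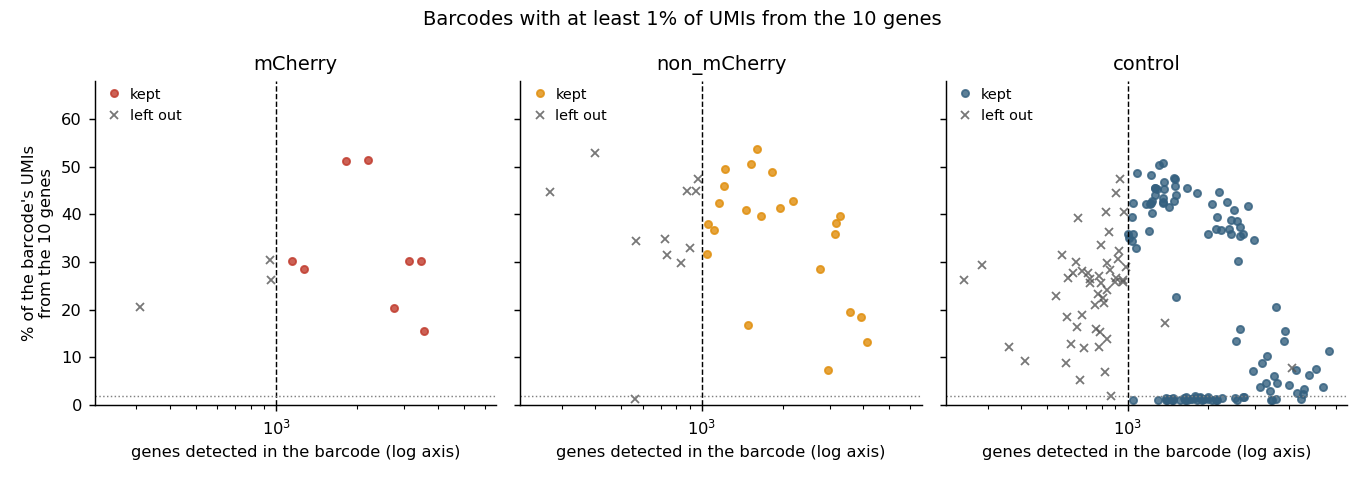
Percent of UMIs from the 10 genes (vertical axis) against genes detected (log axis) for each barcode with at least 1%, with kept barcodes as filled points, left-out ones as crosses, the filter at 1000 genes as a dashed line and the 2% limit as a dotted line. Control has 76 kept and 51 left-out barcodes over the limit, non_mCherry 22 and 10, and mCherry 8 and 3.

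Member-rich barcodes, kept or not, were split by genes outside the list. Those with at least 5000 CPM of Retnlg were called Retnlg-high, and of the rest those with at least 1000 CPM of Mpo, Elane, Prtn3 and Ctsg together were called primary granule barcodes. Both limits were set after the values were seen. Control had 29 primary granule barcodes, 45 with neither and 53 Retnlg-high ones, of which 40 had been left out by the filter. The numbers were 4, 3 and 4 in mCherry, and 6, 9 and 17 in non_mCherry. Of the Retnlg-high barcodes, 0 in mCherry, 1 in non_mCherry and 12 in control also passed the primary granule limit.

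The members did not share 1 profile over these groups. In control, Fcnb had 402 CPM in primary granule barcodes, 374 in those with neither and 0 UMIs in the 53 Retnlg-high barcodes, which allows up to 17.1 CPM. Mmp8 ran the other way, with 195, 294 and 2035 CPM. Camp was highest in the middle group, at 21380, 48380 and 5063 CPM, as was Ltf at 2483, 9880 and 2275 CPM. Chil3 had 2485, 7382 and 599 CPM and Lcn2 5646, 18668 and 7742 CPM. S100a9 stayed high in the last group, at 50684, 119395 and 123668 CPM, and Pglyrp1 had 1804, 3054 and 3159 CPM. The 12 control barcodes that met both limits had 1953 CPM of Mmp8 and 0 UMIs of Fcnb (up to 125 CPM allowed), and the other 41 Retnlg-high ones had 2049 CPM of Mmp8 and 0 UMIs of Fcnb. Camp was at 582 CPM in those 12 and 5776 CPM in those 41. In control, Fcnb thus had no UMI in the Retnlg-high group, where Mmp8 was highest, and was nearly level over the other groups. Camp, Ngp, Ltf, Lcn2 and Chil3 were highest in the middle group.

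The reporter-positive cells were split in the same way, with fewer barcodes. Fcnb was at 1034 CPM in the 4 primary granule mCherry barcodes, 284 in the 3 with neither and 0 UMIs in the 4 Retnlg-high ones (up to 195 CPM allowed). Mmp8 had 0 UMIs in the first 2 mCherry groups and 1816 CPM in the Retnlg-high one. In non_mCherry, Fcnb was at 1120, 196 and 0 CPM and Mmp8 at 0, 104 and 2642 CPM over the same groups. Camp had 31748, 52316 and 130 CPM in mCherry and 49003, 41277 and 7964 CPM in non_mCherry, so its highest group differed there. Across all kept control cells, Mmp8 and Fcnb had the weakest correlation of the 45 pairs of members (Pearson 0.01 over 8849 cells, in log counts per 10000), and Camp and Ngp the strongest (0.95). These cells share 1 library and their depth varies, so the values are descriptions.

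**Figure D4:**
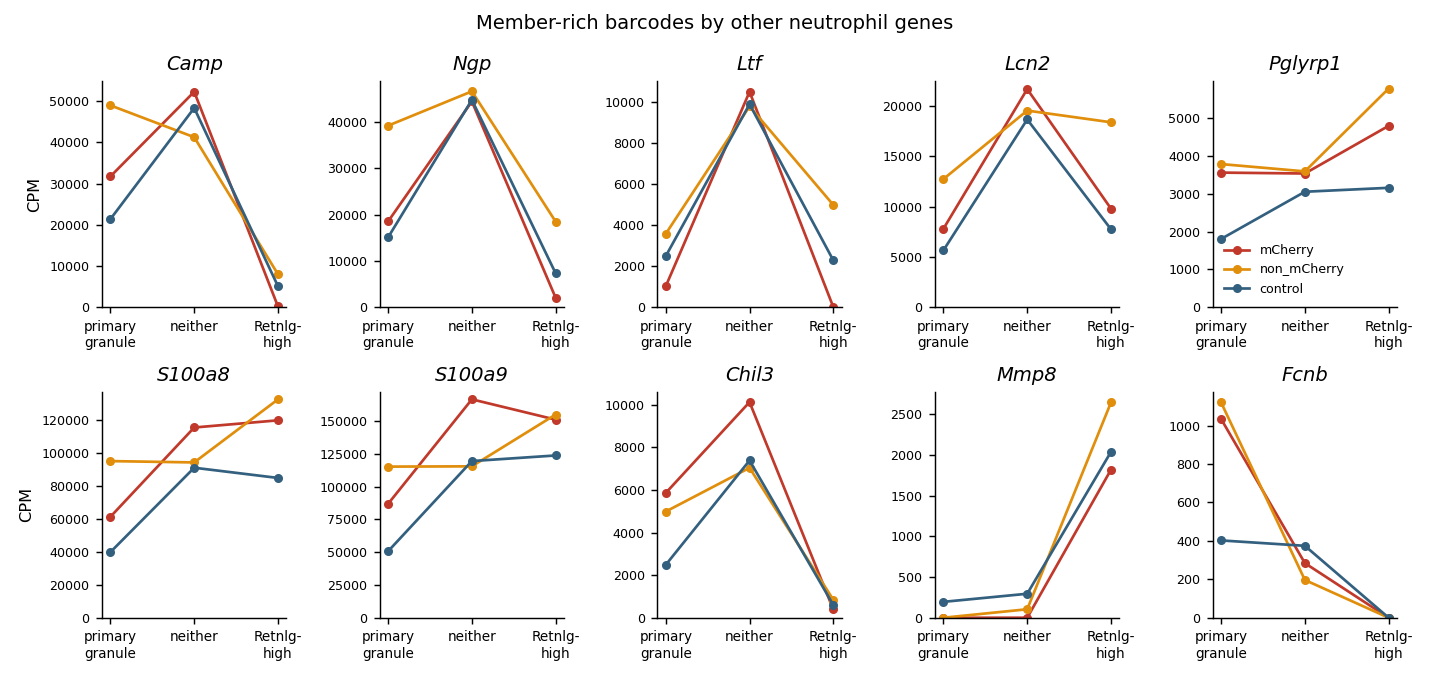
CPM of each of the 10 genes in member-rich barcodes with primary granule RNA, with neither, and with at least 5000 CPM of Retnlg, for mCherry, non_mCherry and control. In all 3 libraries Fcnb has no UMI in the Retnlg-high group and Mmp8 is highest there, at 1816, 2642 and 2035 CPM.

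Outside member-rich cells the levels were low, and the libraries differed in other ways. Camp was at 0.672 CPM in the other mCherry cells, 2.23 in non_mCherry and 6.096 in control. S100a9 was at 4.16, 10.4 and 29.6 CPM, and S100a8 at 3.23, 17.2 and 71.0 CPM in mCherry, non_mCherry and control. Fcnb had 1 UMI in the other mCherry cells, against 0.496 CPM in non_mCherry and 2.301 CPM in control. No member reached 20 CPM in these mCherry cells. Pglyrp1, S100a8 and S100a9 reached it in control and Lcn2 and Pglyrp1 in non_mCherry, and since the minimum was met only where they were high, no count of lower members is given. The background without member-rich cells was 9.95% lower and 15.0% higher among 6571 genes in mCherry over control, and 8.86% lower and 14.1% higher among 6569 genes in mCherry over non_mCherry. In non_mCherry over control S100a8 was 4.13-fold and S100a9 2.85-fold lower, both at 20 CPM only in control, beside 0.213% lower and 1.14% higher among 5626 genes.

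Lcn2 turned its direction between non_mCherry and control. Without member-rich cells it was at 0.488 CPM in mCherry, 26.6 in non_mCherry and 14.8 in control, so that non_mCherry was 1.80-fold higher than control (1.70 to 1.91), while over all kept cells the log2 ratio was -0.07. The level in these mCherry cells was 54.5-fold lower than in non_mCherry (40.6 to 74.9). Pglyrp1 was at 6.23, 43.2 and 50.3 CPM in mCherry, non_mCherry and control.

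Erythroid and B lineage cells were taken as a reference level, and whether their UMIs came from free RNA was not tested. Cells were put in a marker class when at least 3 markers of it were detected and more than of any other class, with no member among the markers. The 1456 erythroid cells of control had 11.3 CPM of S100a9, 10.9 of S100a8, 3.17 of Camp, 2.72 of Ngp, 1.45 of Lcn2 and 1.55 of Pglyrp1. The 2146 B lineage cells of non_mCherry that were not member-rich had 11.9 CPM of S100a9, 11.8 of S100a8, 2.89 of Camp, 4.37 of Lcn2 and 7.26 of Pglyrp1. With 1 member-rich cell that also carried B lineage markers, the summed level of the 10 genes in that class was 94.7 CPM, against 41.9 without it. Control had 56 B lineage cells with 15.8 CPM of S100a9, and mCherry had 19 cells with 0 UMIs of S100a9, too few for a level.

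Erythroid cells of control carried most of these genes in ratios near those of member-rich cells. Per 100 UMIs of S100a9, control member-rich cells had 37.3 of Camp, 32.4 of Ngp, 13.5 of Lcn2 and 76.6 of S100a8. Control erythroid cells had 28.0 of Camp, 24.1 of Ngp, 12.8 of Lcn2 and 96.6 of S100a8. Pglyrp1 departed from this, with 13.7 in erythroid and 2.91 in member-rich cells. In non_mCherry, B lineage cells also departed in Lcn2, with 36.9 of Lcn2 and 61.25 of Pglyrp1, against 14.2 and 3.41 in member-rich cells. Their Camp and S100a8 were nearer, at 24.4 and 99.4, against 30.6 and 83.6 in member-rich cells. Erythroid cells of non_mCherry had 23.1 of Camp, 90.3 of S100a8, 22.1 of Lcn2 and 17.9 of Pglyrp1. The share of control erythroid cells with a UMI of S100a9 was 19.1%, at a median of 16859 UMIs per cell, and 19.1% of all control cells had one at 15416. Thinned to 2000 UMIs and without member-rich cells, the share was 1.85% of control erythroid cells and 4.001% of all control cells.

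The neutrophil-directed class, marked by Elane, Prtn3, Ctsg, Mpo, Ms4a3, Gfi1 and Cebpe, was above the erythroid share in control, with S100a9 in 6.65% of thinned cells. Without member-rich cells it counted 1324 mCherry, 1669 non_mCherry and 3021 control cells. The mCherry cells of this class are unlike the others: Elane was detected in 0.831% of them, against 80.5% in non_mCherry and 87.8% in control, and Cebpe in 6.19%, 42.1% and 43.3%. Mpo was detected in 96.5%, 97.3% and 97.8%, and Gfi1 in 81.9%, 33.8% and 33.8%. The mCherry values of the class are therefore given beside the others and not compared with them. S100a8 was at 2.82 CPM in mCherry, 38.1 in non_mCherry and 168 in control cells of this class. S100a9 was at 3.65, 11.2 and 51.2 CPM in mCherry, non_mCherry and control. In non_mCherry, S100a9 in this class was thus at the level of its B lineage cells, and S100a8 was above it. Per 100 UMIs of S100a9 the class had 339 of S100a8 in non_mCherry and 329 in control, against 83.6 and 76.6 in member-rich cells of those libraries.

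After thinning, S100a8 was seen in 0.453%, 4.37% and 12.1% of neutrophil-directed cells in mCherry, non_mCherry and control, and in 1.72% of control erythroid cells. Lcn2 was at 1.74, 75.4 and 27.5 CPM in mCherry, non_mCherry and control, and was seen after thinning in 0.227%, 8.63% and 5.66% of cells. Pglyrp1 was at 10.0, 119 and 117 CPM in the same order, and was seen after thinning in 1.81%, 15.5% and 14.4% of cells. Camp was at 0.664, 1.93 and 10.7 CPM, and Fcnb at 0 UMIs in mCherry (up to 0.249 CPM allowed), 1.22 in non_mCherry and 4.43 CPM in control. Lcn2 was higher in non_mCherry than in control in this class, S100a8 was lower, and Pglyrp1 was nearly level.

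Other classes held single members. In the monocyte-directed class Chil3 was at 3.64 CPM in 649 non_mCherry cells and 22.4 CPM in 1420 control cells, above 0.423 and 0.827 CPM in their erythroid cells. Mmp8 was at 5.70 CPM in non_mCherry and 5.23 CPM in control monocyte-directed cells, and at 0 UMIs in the erythroid cells of both. Of the 27 Chil3 UMIs outside member-rich cells in mCherry, 12 came from 1 monocyte-directed cell, in a class of 9 cells. Pglyrp1 was at 194 CPM in the 81 T, NK and innate lymphoid cells of non_mCherry and 178 CPM in the 54 of control. The basophil and mast class also differed in its markers, with Prss34, a basophil protease, detected in 3.14% of mCherry, 60.8% of non_mCherry and 64.3% of control cells, and Cma1, a mast cell chymase, in 77.8%, 10.4% and 8.25%. In basophil and mast cells Pglyrp1 was at 2.10 CPM in mCherry, 93.4 in non_mCherry and 95.5 in control. Lcn2 was at 0.247 CPM in mCherry, 23.2 in non_mCherry and 23.9 in control cells of the basophil and mast class.

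The stem and multipotent class, with 4352 cells, made up the largest class of mCherry. It had 0.703 CPM of Camp, 4.06 of S100a9, 3.14 of S100a8 and 6.35 of Pglyrp1 in mCherry. In that class Pglyrp1 was at 18.3 CPM in non_mCherry and 29.3 in control, and S100a9 at 10.0 and 15.2 CPM. The stem and multipotent class also differed in its markers. Mycn was detected in 0.253% of mCherry, 25.2% of non_mCherry and 31.3% of control cells, while Procr went the other way, at 55.5%, 23.1% and 25.3%. The mCherry values of this class are therefore given beside those of the same class in the other libraries and not compared with them. S100a9 lay between 3.65 and 5.30 CPM in the 3 mCherry classes of over 1000 cells, below the 9.16 CPM of non_mCherry and the 11.3 CPM of control erythroid cells. Background and low expression cannot be told apart at these values.

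**Figure D5:**
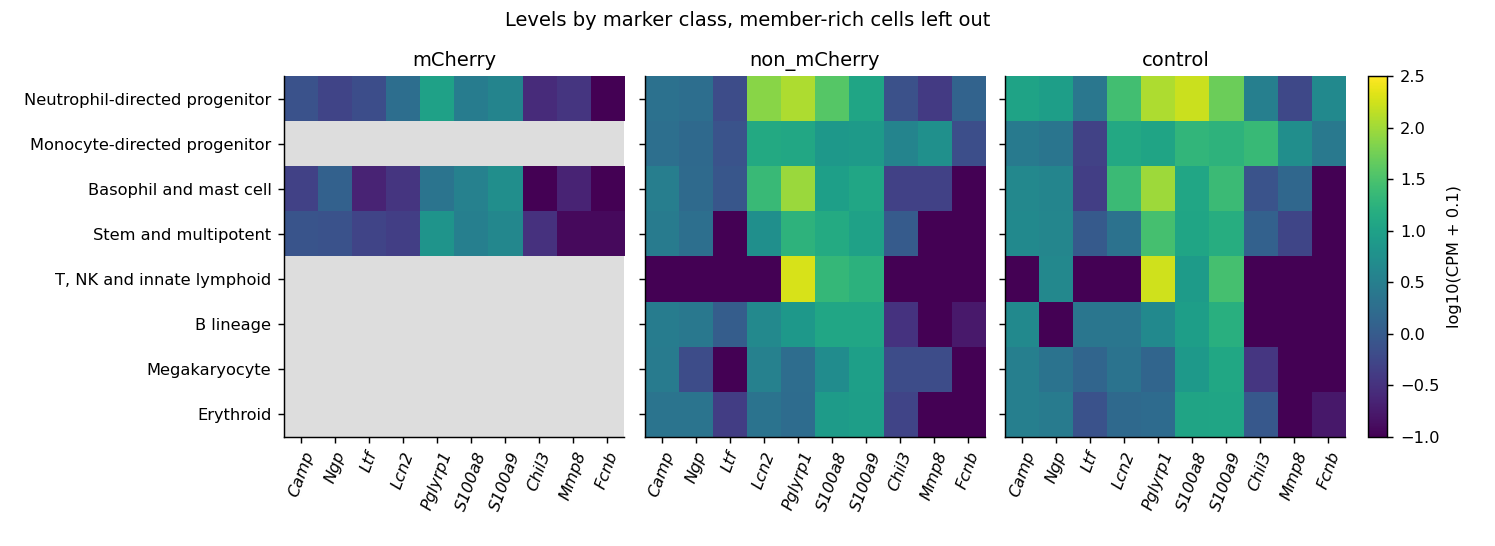
log10(CPM + 0.1) of the 10 genes in marker classes of at least 50 cells, without member-rich cells, for mCherry, non_mCherry and control; grey marks classes with fewer cells. S100a8 is highest in the neutrophil-directed class of control at 168 CPM, Lcn2 in that of non_mCherry at 75.4 CPM, and Pglyrp1 in the T, NK and innate lymphoid cells of non_mCherry at 194 CPM.

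The genes whose cell-to-cell pattern was most like the mean of the members were ranked over the 8849 control cells, among 5417 genes with at least 20 CPM in control. The first were Retnlg (Pearson 0.58), Cybb, a subunit of the NADPH oxidase (0.57), Anxa1, which encodes annexin A1 (0.46), and Lyz2, which encodes lysozyme (0.46). Gda, Cebpe, Prdx5, Trem3, Hp and Pygl followed at 0.40 to 0.35. In mCherry cells the same measure was 0.45 for Retnlg, 0.73 for Cybb, 0.79 for Trem3 and 0.87 for Hp. It was 0.42 for Cebpe, 0.20 for Anxa1, 0.17 for Lyz2, 0.10 for Prdx5, 0.09 for Gda and 0.08 for Pygl.

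Other genes of neutrophil maturation were set beside the members. Of 20 other late granule and surface genes, 8 had at least 20 CPM. In mCherry over control 5 of these were at least 2-fold lower and 1 higher (median -1.07 on the log2 scale). Over all 6576 genes compared, 10.0% were at least 2-fold lower and 14.9% higher. Among the 5 lower ones, Cybb, Hp, Retnlg and Slpi reached 20 CPM only in control, so that their direction is largely set by that minimum. Anxa1 reached it in both libraries. Without member-rich cells 6 had at least 20 CPM, of which 2 were lower and 1 higher (median -0.91). The 2 lower ones, Slpi and Hp, reached 20 CPM only in control. Slpi, a protease inhibitor, was at 0.585 CPM in mCherry and 162 in control, and Hp at 3.54 and 167 CPM. Csf3r, the receptor of the granulocyte growth factor G-CSF, was the higher one, at 67.9 CPM in mCherry and 22.1 in control. Unlike Camp, Slpi kept 160 CPM and Hp 160 CPM in control without member-rich cells. In non_mCherry over control 1 of 8 was lower, Slpi at 68.1 and 162 CPM.

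Of 10 genes listed with the primary granules (Mpo, Elane, Prtn3, Ctsg, Ms4a3, Bpi, Cst7, Serpinb1a, Nkg7 and Igsf6), 9 had at least 20 CPM. In mCherry over control 7 of these 9 were lower and 2 higher (median -2.64 on the log2 scale). Over all 6576 genes compared, 10.0% were at least 2-fold lower and 14.9% higher. Elane, Ms4a3 and Igsf6 reached 20 CPM only in control, so that their direction is largely set by that minimum. The median is that of Nkg7, which was also a marker of the T, NK and innate lymphoid class. Elane, neutrophil elastase, had a log2 ratio of -7.37 and Prtn3, proteinase 3, of -5.89, while Serpinb1a, an inhibitor of such proteases, was at 2.06 and Cst7, a cystatin, at 1.63. In non_mCherry over control Elane was the only one past 2-fold, at -1.02. Mpo, myeloperoxidase, was at 568 CPM in mCherry, 1596 in non_mCherry and 2637 in control. The listed genes with at least 20 CPM kept a median of -2.65 without member-rich cells.

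Of 6 factors of granulocyte stages, 5 had at least 20 CPM, with 3 lower and 2 higher in mCherry than in control. Over all 6576 genes compared, 10.0% were at least 2-fold lower and 14.9% higher. Cebpa and Cebpe reached 20 CPM only in control and Gfi1 only in mCherry, so that their direction is largely set by that minimum. Spi1 and Cebpb reached it in both libraries. Cebpe, which encodes C/EBP epsilon, was at 3.31 CPM in mCherry, 39.4 in non_mCherry and 48.8 in control. Cebpa, the factor of early granulocyte commitment, was at 2.09, 28.3 and 46.6 CPM in mCherry, non_mCherry and control. Spi1, which encodes PU.1, was at 73.5, 147 and 187 CPM. Gfi1, a repressor needed for neutrophil formation, was at 92.5, 13.04 and 13.96 CPM, and Cebpb at 227, 53.3 and 101 CPM. In the 8 member-rich mCherry cells Cebpe was detected in 7, at 864 CPM, against 2.38 CPM in the other mCherry cells.

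Of 12 other S100 genes, 5 had at least 20 CPM, and 1 was at least 2-fold lower in mCherry than in control: S100a11, at 73.0 and 203 CPM. S100a10, the partner of annexin A2, was at 242, 316 and 315 CPM in mCherry, non_mCherry and control, and S100a13 at 123, 87.5 and 76.4 CPM. The median log2 ratio of these 5 was -0.37, against -2.03 for S100a8 and -1.77 for S100a9. All 7 receptors and partners of the member proteins were under 20 CPM in each library, among them Tlr4, a receptor of calprotectin, at 1.46, 1.13 and 1.26 CPM in mCherry, non_mCherry and control. Fcna, the paralog of Fcnb that macrophages make in mice, was at 0.834, 0.161 and 0.147 CPM, and Mmp13, a collagenase of the same family as Mmp8, at 0 UMIs in mCherry and control.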

How the data were processed

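Per the file headers and labels, the authors deposited a matrix of whole UMI counts per gene and cell barcode for each library. Cell Ranger 6.1.2 and mm10 are named per the submitters' processing notes, but version 3.1.0 stands in the matrices per the file headers, and the software behind the counts is not settled here. Cells were kept with 1000 genes, 2000 UMIs, at most 10% mitochondrial UMIs and a Scrublet score up to 0.25 (scanpy 1.11.5), which left out 247 mCherry, 204 non_mCherry and 217 control doublets. Doublets of like cells cannot be found this way. CPM came from UMI sums over kept cells (numpy 2.4.6, scipy 1.17.1, pandas 2.3.3, Python 3.11.15). Ratios used a pseudocount of 5 CPM, a minimum of 20 CPM in 1 of the libraries and a 2-fold limit. Poisson and Clopper-Pearson intervals are exact, at 95%. The allowance for 0 UMIs is 3 counts of the total. Thinning drew 2000 UMIs from each cell. The fold rule was tested on simulated data. Named genes were all 10 members, the 10 genes most correlated with them in control, and the ends of the listed pathways. The members and lists were chosen with earlier results of these data known, and the member-rich limit and the split by Retnlg after the values were seen.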

Additional observations from a re-analysis of the deposited data

How the results depend on the processing

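No paired analysis was possible because each group is 1 library. All deposited barcodes, a looser cell filter, kept doublets and median-of-ratios scaling (a shift of -0.20, -0.19 and -0.01 on the log2 scale in mCherry over control, mCherry over non_mCherry and non_mCherry over control) moved none of the 3 counts of members past 2-fold, which were 8, 6 and 0. The count in non_mCherry over control was 1 with a pseudocount of 1 CPM and 7 with cells thinned to 2000 UMIs. Neither setting has a share over all genes beside it. Further settings left out the 2% of cells highest in the members, or member-rich cells at a limit of 1%, 2% or 4%. No member then reached 20 CPM in mCherry, so counts in both mCherry comparisons are set by the minimum and are not given. In non_mCherry over control without member-rich cells, S100a8 and S100a9 passed 2-fold, both at 20 CPM only in control. The member-rich settings were chosen after seeing the data. Lcn2 in non_mCherry over control was at 0.58 to 0.74 in these 4 settings and between -1.03 and -0.07 in the others; no other direction turned.

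The share of cells with a UMI of any member was 12.4%, 37.8% and 55.1% in mCherry, non_mCherry and control, and 33.6% and 53.0% in non_mCherry and control over all barcodes. Thinned to 2000 UMIs it was 3.21%, 12.9% and 17.5%, and to 1000 UMIs 1.52%, 7.91% and 11.4%. The median share of UMIs in the top 2% of cells, 100%, 99.6% and 95.7%, was 97.5%, 94.1% and 84.9% with cells ranked by the other 9 members. In non_mCherry and control it was 98.7% and 88.6% for the top 1%, 100% and 99.7% for the top 5%, and 100% and 99.8% when thinned; over all control barcodes it was 94.8%. The summed level in B lineage cells of non_mCherry was 94.7 CPM, and 41.9 CPM without member-rich cells. In the neutrophil-directed class, whose mCherry cells differ in their markers, it was 515, 250 and 522 CPM in mCherry, non_mCherry and control. With at least 4 markers it was 1057, 265 and 553 CPM, with at least 2 it was 485 CPM in mCherry, and without member-rich cells it was 20.3 CPM in mCherry and 394 CPM in control. The cause was not tested. Depth limits what can be said of Mmp8 and Fcnb in mCherry, with 33 and 66 UMIs, and 1 animal per genotype limits every comparison.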
